A study of Mus musculus with 12 samples.

Results

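The 7 genes described here are clock output regulators: the bZIP genes Dbp, Tef, Hlf and Nfil3, the bHLH genes Bhlhe40 and Bhlhe41, and Ciart. They are part of the 24187 genes counted in mouse liver. They were chosen by name, for their known place in the circadian system, with earlier results of the same livers in view, and so were chosen from differences in counts between the 3 groups compared below. Their levels and fold changes are therefore given as a description, without p-values. All 7 matched a row of the count table by Ensembl identifier, and all 7 passed the filter on low counts that left 22581 genes for testing.

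Livers were from adult mice in 3 groups, C57BL/6J by the sample labels, while the study's methods name both C57BL/6J and C57BL6/JOlaHsd. The control group (n = 3) was untreated. The other mice received acetaminophen (APAP), a drug that injures hepatocytes in overdose, at 350 mg/kg by the sample labels, although the study names a higher dose for the severe model in which these data are shown. APAP-treated mice then received PBS vehicle (n = 5) or hAAMs (n = 4), which are cryopreserved human alternatively activated macrophages grown from blood monocytes and polarised with IL-4 and IL-13. In the study, mice were fasted before APAP, and vehicle or cells were injected into the tail vein afterwards. The time of day at which each liver was collected is not given in the sources used here, so treatment group and hour of collection cannot be told apart.

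In each cell the circadian clock runs on a loop in which CLOCK, or its relative NPAS2, pairs with BMAL1 (gene Arntl) to switch on genes that carry E-boxes, among them the Per, Cry and Nr1d genes, whose products then shut the loop down. DBP, TEF and HLF are PAR bZIP activators that carry this rhythm onward: they bind D-boxes, and in liver they drive genes of drug and bile acid metabolism. NFIL3 (E4BP4) is a bZIP repressor that binds the same D-boxes, and its own gene is repressed by the REV-ERB proteins through ROR elements. CIART (CHRONO), BHLHE40 (DEC1) and BHLHE41 (DEC2) repress CLOCK and BMAL1, and the DEC pair does so in part by binding E-boxes itself.

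The genes sit on 6 chromosomes of GRCm38, and each is protein-coding. Dbp (ENSMUSG00000059824) is at chr7:45705088-45710203 on the plus strand, Tef (ENSMUSG00000022389) at chr15:81802421-81826863 on the plus strand, and Hlf (ENSMUSG00000003949) at chr11:90336536-90390895 on the minus strand. Nfil3 (ENSMUSG00000056749) is at chr13:52967209-52981073 and Ciart (ENSMUSG00000038550) at chr3:95878503-95882251, both on the minus strand. Bhlhe40 (ENSMUSG00000030103) and Bhlhe41 (ENSMUSG00000030256) lie on the same chromosome, at chr6:108660629-108666925 on the plus strand and chr6:145858243-145865558 on the minus strand. Whether the authors' counting used strand is not stated, and 4 of the genes share exon bases with a gene on the opposite strand. Sphk2, opposite Dbp, had 1407 to 2639 counts per liver and differed from control by 0.04 (vehicle) and -0.04 (hAAM) on the log2 scale, while Gm17597, opposite Tef, had 1 to 19 counts. The partners of Bhlhe40 and Bhlhe41, 0610040F04Rik and Gm43909, were not analysed here.

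The 250 bases upstream of the annotated starts were searched on both strands for the letters of 4 clock-related elements: the E-box CACGTG, the D-box TTATGTAA or TTACGTAA, the ROR element (RORE) TAGGTCA or TGGGTCA, and the cAMP response element (CRE) TGACGTCA. RefSeq (GRCm38.p6) gave 7 windows for 6 of the genes, with 2 starts for Tef; Bhlhe40 had no entry. E-boxes were found before the RefSeq starts of Ciart (3 matches), Tef (1 match at each start) and Bhlhe41 (1 match). An RORE was found before that of Nfil3 and a CRE before that of Hlf. The gene bounds given above are from GENCODE, whose starts can differ. By those bounds the Tef and Nfil3 stretches printed below lie inside the gene, and the Bhlhe41 stretch reaches into it. Over all 32851 windows of this length, 6.02% held an E-box, 0.0609% held 3 or more, 5.38% held an RORE, 1.55% a CRE and 0.932% a D-box. The stretches with the matches are shown 5′ to 3′ on the gene's strand because they carry the letters that the clock factors and the DEC repressors are known to read, with the match in capitals; for Nfil3 the capitals are the RORE read from the other strand.
Ciart, chr3:95882252-95882478, minus strand: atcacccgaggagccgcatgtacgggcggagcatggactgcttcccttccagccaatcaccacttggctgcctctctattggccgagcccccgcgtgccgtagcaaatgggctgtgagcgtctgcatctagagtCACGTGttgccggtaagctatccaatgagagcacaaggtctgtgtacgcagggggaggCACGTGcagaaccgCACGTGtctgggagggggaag
Tef, start 1, chr15:81802534-81802563, plus strand: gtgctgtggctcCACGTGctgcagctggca
Tef, start 2, chr15:81811264-81811293, plus strand: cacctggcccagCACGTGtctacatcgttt
Bhlhe41, chr6:145865556-145865585, minus strand: tggtacgttccgCACGTGagctgggtgctg
Nfil3, chr13:52981040-52981069, minus strand: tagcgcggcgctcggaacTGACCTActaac
Hlf, chr11:90390918-90390947, minus strand: atcggcgcgcggtgcgggcccTGACGTCAc
No window of these genes held the D-box letters, and the window of Dbp held none of the letters searched. That window runs into the gene as placed above, and bases outside the windows, introns among them, were not searched. A match describes the letters in the window and not a bound site.

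**Figure D1:**
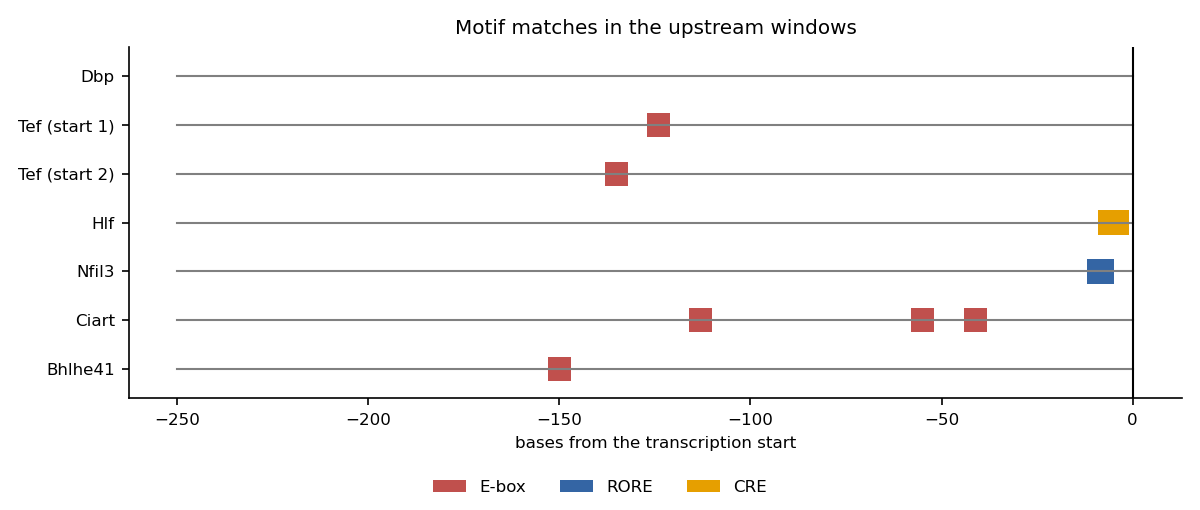
Positions of the motif matches in the 250 bases before each RefSeq start (x axis, bases from the start, with coloured boxes for matches on either strand). Ciart holds 3 E-boxes, at -116, -58 and -44, while Dbp has no match.

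Before the livers are compared, a pair of libraries needs to be named. hAAM replicate 4 and vehicle replicate 3 carry different labels, but the spread between their counts was only 1.42 times that of counting noise. Each of the other 35 pairings among APAP livers had a multiple between 5.57 and 24.7. Whether they come from 2 separate livers cannot be told from the sources used here. If they do not, the number of independent APAP livers is 8 and not 9, and 1 of the group labels is in doubt. The levels below are those of all 12 livers, and the member differences and the list counts that changed by over 1.5 times are also given without both libraries. Each liver had between 47391650 and 74056505 counts in all, and the lowest count of any of the 7 genes was 20. Hepatocyte marker transcripts, mostly Alb, summed to between 56812 and 94210 CPM (counts relative to library size, scaled by TMM) in every liver. Of these 6 markers, Fgb (-1.05) and Hnf4a (-0.38) fell with vehicle and Fgb (-0.99) fell with hAAMs on the log2 scale. Monocyte and recruited macrophage markers summed to 57.4 to 70.4 CPM in control, 132 to 242 in vehicle-treated and 132 to 317 in hAAM-treated livers, and 5 of the 6 markers rose in each APAP group (edgeR, adjusted p under 0.05), where 15% of all genes rose with vehicle and 10.7% with hAAMs. Of 5 sinusoidal endothelial markers 3 rose with vehicle and 2 with hAAMs, and of 5 stellate cell markers 2 rose in each. In such bulk samples fewer cells of a type and less RNA per cell cannot be told apart, and the part of cell composition in the values below was not tested.

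After APAP and vehicle, most of the clock output genes differed from control, but not in one direction. Dbp, Tef, Ciart and Bhlhe41 were higher in every vehicle-treated liver than in any control liver, Nfil3 was lower in every one, and Hlf and Bhlhe40 overlapped. Thus 5 of the 7 genes did not overlap, where 34.8% of all genes tested did not; since the genes were chosen with this contrast known, nothing is read from that excess. By log2 fold change, Ciart was at rank 116 and Dbp at rank 215 from the top of the 22581 genes, and Nfil3 at rank 208 from the bottom.

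**Figure D2:**
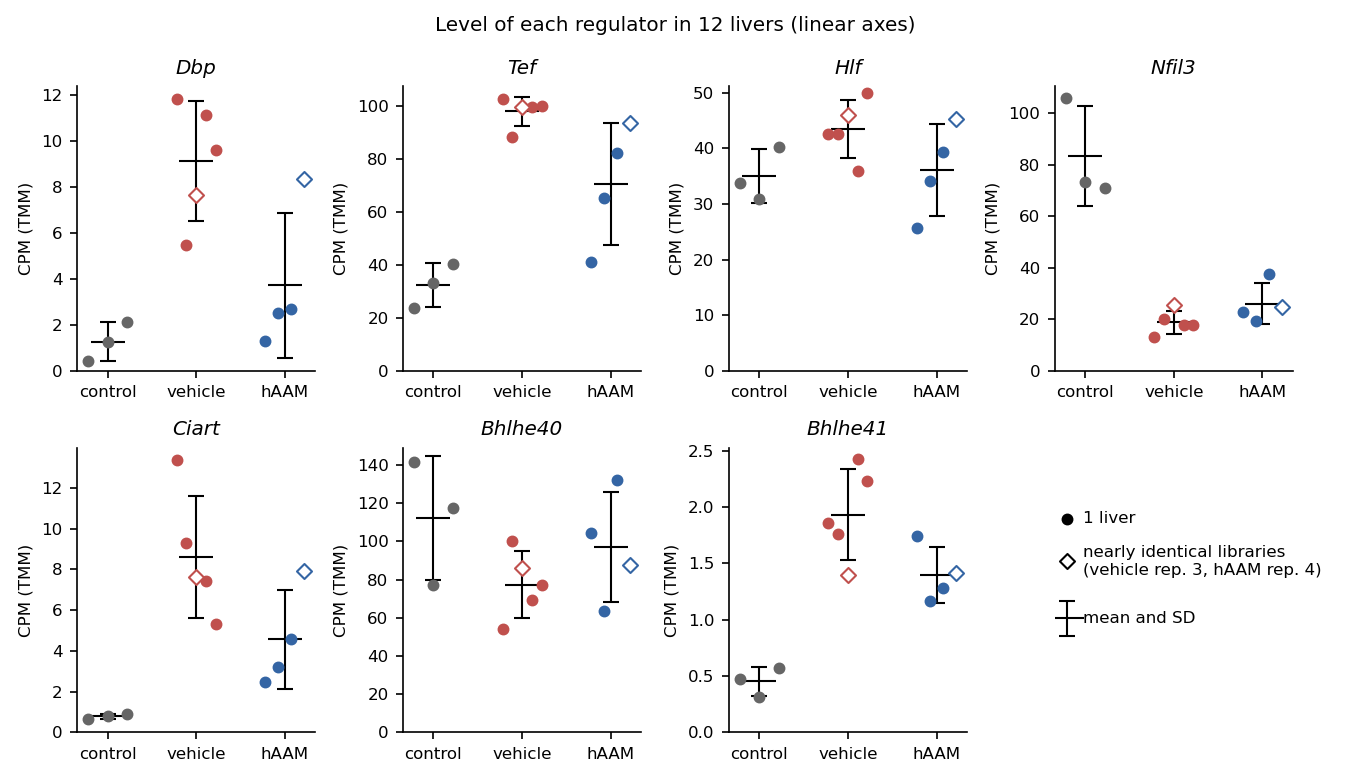
Level of each of the 7 genes (y axis, CPM on linear axes from 0) in each liver of the control, vehicle and hAAM groups; points are livers, diamonds the nearly identical libraries, and lines the mean and SD. Dbp, Tef, Ciart and Bhlhe41 are higher and Nfil3 lower in the 5 vehicle-treated livers than in the 3 controls, with the hAAM means between.

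Among the PAR bZIP activators, Dbp varied most. Its level was 0.438, 1.24 and 2.13 CPM in control replicates 1 to 3, and 11.8, 5.48, 7.65, 11.1 and 9.59 CPM in vehicle replicates 1 to 5. The hAAM-treated livers had 1.29, 2.54, 2.69 and 8.36 CPM. The lowest vehicle-treated liver (5.48) was thus well above the highest control (2.13), while hAAM replicates 1 to 3 lay within or just above the control range and only replicate 4, one of the nearly identical libraries, lay among the vehicle values. The group means were 1.27 ± 0.848 CPM in control (SD, n = 3), 9.14 ± 2.60 with vehicle (n = 5) and 3.72 ± 3.16 with hAAMs (n = 4). The log2 fold change against control was 2.85 (SE 0.62) with vehicle and 1.55 (SE 0.61) with hAAMs. Without hAAM replicate 4 the latter was 0.78.

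Tef, which encodes the thyrotroph embryonic factor, had the narrowest vehicle group of the 7 genes relative to its mean. Control livers had 23.7, 33.1 and 40.5 CPM, vehicle-treated livers 103, 88.6, 99.9, 99.6 and 100.1 CPM, and hAAM-treated livers 41.0, 65.4, 82.3 and 93.9 CPM. All 9 APAP livers were above all controls, hAAM replicate 1 (41.0 CPM) only just above control replicate 3 (40.5 CPM). Means were 32.4 ± 8.39 CPM in control, 98.2 ± 5.50 with vehicle and 70.6 ± 23.0 with hAAMs. The log2 fold change against control was 1.60 (SE 0.24) with vehicle and 1.12 (SE 0.24) with hAAMs.

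Hlf, the hepatic leukaemia factor gene, had the smallest differences of the PAR bZIP genes. Its level was 33.8, 30.8 and 40.3 CPM in control, 42.5, 42.6, 46.0, 35.9 and 49.98 CPM with vehicle, and 25.7, 34.2, 39.4 and 45.2 CPM with hAAMs. The 3 groups overlapped. The difference from control was 0.31 (SE 0.16) on the log2 scale with vehicle, or 0.66 with library size scaling, and 0.05 (SE 0.17) with hAAMs, and the sign of the latter turned in 4 of 21 other settings, to -0.08 without hAAM replicate 4 and -0.04 without control replicate 2.

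The repressor gene Nfil3 went the other way. It stood at 106, 73.3 and 71.0 CPM in control livers, at 13.1, 20.0, 25.6, 17.7 and 17.9 CPM in vehicle-treated livers and at 22.7, 19.4, 37.5 and 25.0 CPM in hAAM-treated livers. Every APAP liver was below every control, and the lowest control was above the highest APAP liver, hAAM replicate 3. Means were 83.4 ± 19.5 CPM in control, 18.9 ± 4.52 with vehicle and 26.1 ± 7.89 with hAAMs. The log2 fold change was -2.14 (SE 0.23) with vehicle and -1.67 (SE 0.24) with hAAMs.

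Since NFIL3 and the PAR bZIP proteins bind the same element, their transcripts were set side by side as CPM per kilobase of exon, a scale on which genes can be compared. Nfil3 exceeded the sum of Dbp, Tef and Hlf in all 3 controls, where the sum divided by Nfil3 was 0.157, 0.255 and 0.339. In vehicle-treated livers this ratio was 3.61, 1.98, 1.75, 2.48 and 2.65. In hAAM-treated livers it was 0.845, 1.49, 0.934 and 1.74. The groups were thus separate from control in this ratio, and all 4 hAAM-treated livers fell below all vehicle-treated livers, although hAAM replicate 4 (1.74) and vehicle replicate 3 (1.75), the nearly identical libraries, all but touched. The ratio is built from genes chosen with their differences known and is a description.

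**Figure D3:**
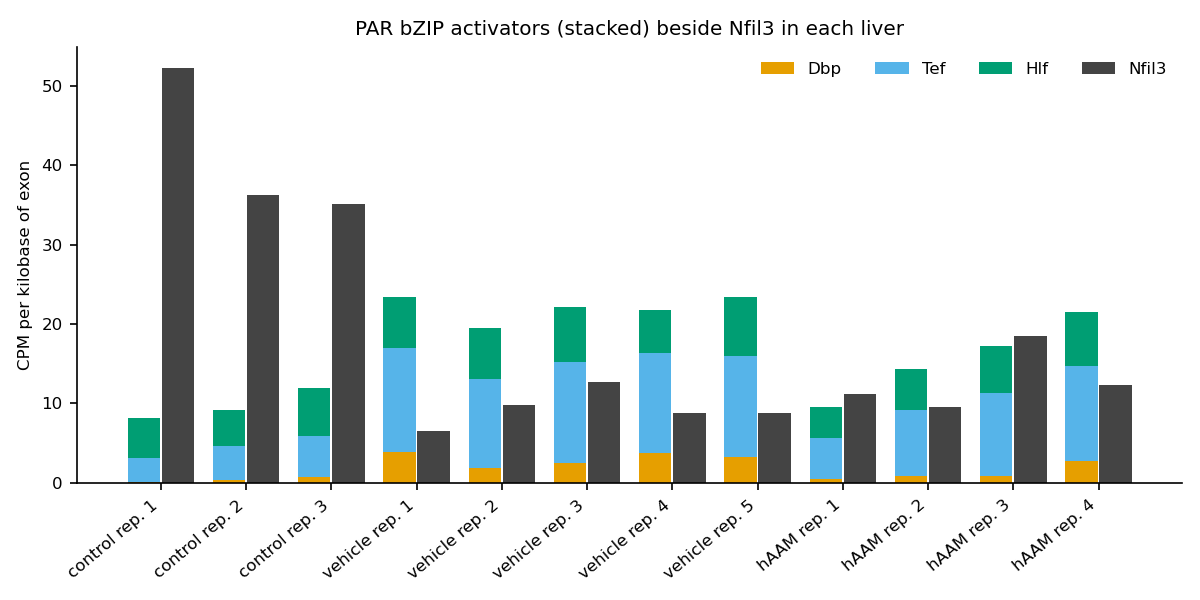
Stacked level of Dbp, Tef and Hlf beside that of Nfil3 in each of 12 livers (y axis, CPM per kilobase of exon, from 0). Nfil3 is the taller bar in the 3 controls and the shorter one in all 5 vehicle-treated livers, and in hAAM replicates 2 and 4.

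The make-up of the PAR bZIP transcripts also differed. Hlf gave 54.1% ± 6.45 (SD, n = 3) of the summed level per kilobase in control livers, 29.6% ± 3.45 (n = 5) with vehicle and 35.5% ± 3.80 (n = 4) with hAAMs. Tef gave 41.8% ± 4.58, 56.7% ± 1.59 and 57.3% ± 2.62, in the same order. Dbp was the smallest share throughout, at 4.09% ± 2.13 in control, 13.7% ± 3.35 with vehicle and 7.17% ± 3.93 with hAAMs. Without the nearly identical pair the Dbp share was 14.3% ± 3.61 (n = 4) with vehicle and 5.23% ± 0.705 (n = 3) with hAAMs, and that of Hlf 29.2% ± 3.86 and 36.8% ± 3.30.

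Among the repressors of CLOCK and BMAL1, Ciart had the largest fold change of the 7 genes. Its level was 0.667, 0.818 and 0.909 CPM in control, 13.4, 9.31, 7.63, 7.42 and 5.31 CPM with vehicle, and 2.50, 3.20, 4.61 and 7.93 CPM with hAAMs. No APAP liver overlapped the controls, and the counts behind the control values were 35, 52 and 46. Means were 0.798 ± 0.122 CPM in control, 8.60 ± 3.01 with vehicle and 4.56 ± 2.41 with hAAMs. The log2 fold change was 3.43 (SE 0.43) with vehicle and 2.51 (SE 0.42) with hAAMs. Its upstream window is the one with 3 E-boxes printed above.

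The paralogs Bhlhe40 and Bhlhe41 differed in level, and Bhlhe41 alone was separate from control. Bhlhe41 was scarce, at 0.476, 0.315 and 0.573 CPM in control (20 to 29 counts), 1.86, 1.76, 1.39, 2.42 and 2.23 CPM with vehicle, and 1.74, 1.17, 1.28 and 1.42 CPM with hAAMs. All APAP livers were above all controls, by 2.10 (SE 0.25) with vehicle and 1.63 (SE 0.26) with hAAMs on the log2 scale. Bhlhe40 was abundant, at 142, 77.3 and 117 CPM in control, 54.0, 100.3, 86.0, 69.4 and 77.2 CPM with vehicle, and 104, 63.5, 132 and 87.6 CPM with hAAMs. Its groups overlapped, and the log2 difference from control was -0.53 (SE 0.25) with vehicle and -0.21 (SE 0.26) with hAAMs. The first was -0.33 without control replicate 1, and when libraries were scaled by their size alone the first was -0.19 and the second 0.07. Leaving out 1 liver moved the second to -0.0041 (control replicate 1), -0.42 (control replicate 2), -0.05 (hAAM replicate 2) or -0.40 (hAAM replicate 3). Per kilobase, the mean of Bhlhe40 was 23.8 CPM in control against 0.0677 for Bhlhe41.

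On that per-kilobase scale the order of the 7 genes changed between the groups. In control livers the means ran from Nfil3 (41.2) through Bhlhe40 (23.8), Hlf (5.24), Tef (4.12), Dbp (0.425) and Ciart (0.353) to Bhlhe41. With vehicle the order was Bhlhe40 (16.4), Tef (12.5), Nfil3 (9.31), Hlf (6.50), Ciart (3.81), Dbp (3.05) and Bhlhe41 (0.288). With hAAMs it was Bhlhe40 (20.6), Nfil3 (12.9), Tef (8.98), Hlf (5.41), Ciart (2.02), Dbp (1.24) and Bhlhe41 (0.208). In control livers Hlf overlapped Tef and Dbp overlapped Ciart, while the other neighbours in the order were separate. With vehicle every gene overlapped its neighbour except Dbp and Bhlhe41. With hAAMs every gene overlapped its neighbour except Hlf and Ciart, and Dbp and Bhlhe41. Without the nearly identical pair the order of the means was the same in each group.

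Against control, hAAM-treated livers thus had 3 of the 7 genes higher without overlap (Tef, Ciart and Bhlhe41), 1 lower (Nfil3) and 3 overlapping (Dbp, Hlf and Bhlhe40), where 28.5% of all genes did not overlap. For all 7 genes the hAAM mean lay between the control and the vehicle mean, which was so for 51.8% of all genes tested. Without the nearly identical pair this held for 6 of the 7, all but Hlf, and for 49.6% of all genes. The APAP groups share their controls, so the 2 sets of fold changes are not independent. Without the pair, the log2 fold change with hAAMs against control was 0.78 (SE 0.49) for Dbp, 0.96 (SE 0.24) for Tef, -0.08 (SE 0.17) for Hlf, -1.65 (SE 0.26) for Nfil3, 2.11 (SE 0.36) for Ciart, -0.16 (SE 0.30) for Bhlhe40 and 1.63 (SE 0.26) for Bhlhe41. With vehicle against control it was 2.91 for Dbp, 1.60 for Tef, 0.30 for Hlf, -2.27 for Nfil3, 3.47 for Ciart, -0.57 for Bhlhe40 and 2.20 for Bhlhe41. The same genes as before overlapped the controls in each APAP group. The hAAM mean was then 2.17 ± 0.771 CPM for Dbp, 62.9 ± 20.8 for Tef and 3.44 ± 1.07 for Ciart (n = 3), and the vehicle mean 9.51 ± 2.84, 97.8 ± 6.25 and 8.85 ± 3.42 (n = 4).

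**Figure D4:**
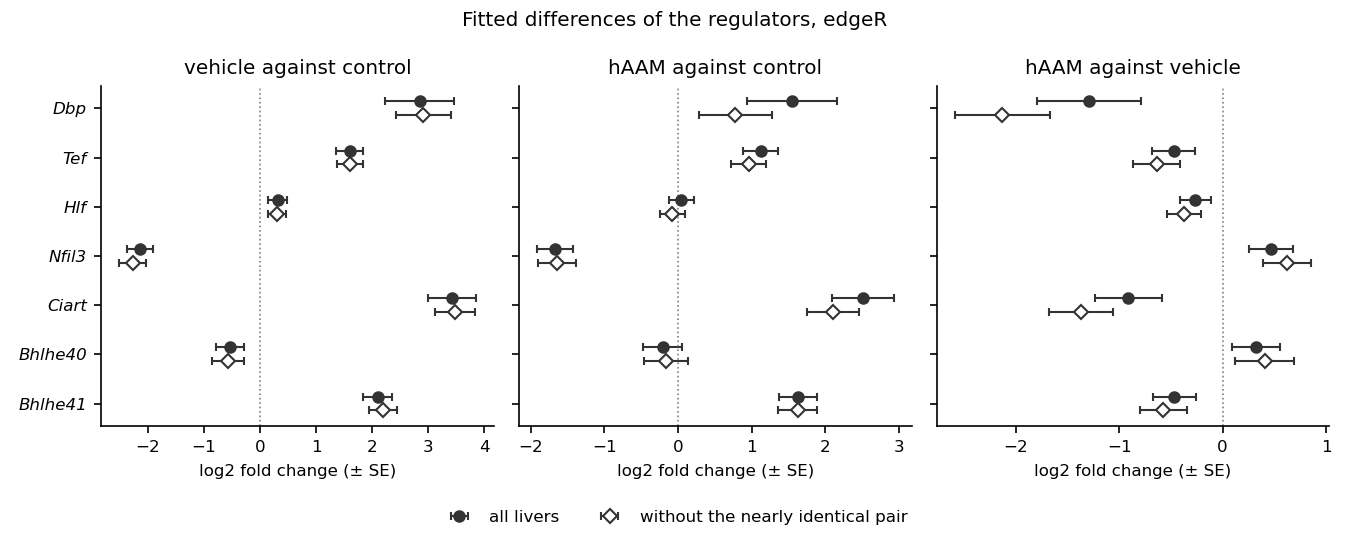
Fitted log2 fold change of each gene (x axis, ± SE) in the 3 comparisons, with all 12 livers (filled) and without hAAM replicate 4 and vehicle replicate 3 (open). In the direct comparison Dbp lies at -1.30 with all livers and at -2.13 without the pair.

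The direct comparison of hAAM-treated with vehicle-treated livers bears on whether the cells altered the response to APAP. No gene passed an adjusted p of 0.05 in edgeR (0% of 22581), while 1133 (5.02%) had an unadjusted p under 0.05 and DESeq2 called 1. All 7 clock output genes overlapped between the treatments, where 1.4% of all genes did not. The nearly identical libraries stand in opposite groups, which makes overlap likely for any gene, so nothing is read from this overlap. The log2 difference, hAAM minus vehicle, was -1.30 (SE 0.50) for Dbp, -0.91 (SE 0.33) for Ciart, -0.47 (SE 0.21) for Tef, -0.47 (SE 0.21) for Bhlhe41 and -0.27 (SE 0.15) for Hlf. It was 0.47 (SE 0.21) for Nfil3 and 0.32 (SE 0.23) for Bhlhe40. In this contrast Dbp was at rank 48 and Ciart at rank 171 from the bottom of all genes tested.

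These differences rested on some livers more than others. Among the 9 APAP livers, hAAM replicates 1, 2 and 3 were the lowest 3 in Dbp, Tef and Ciart, and replicates 1 and 2 the lowest 2 in Hlf. hAAM replicate 3 had the highest Nfil3 and Bhlhe40 of the 9. Without hAAM replicate 1 the Tef difference was -0.28 and the Hlf difference -0.13, and without hAAM replicate 3 the Nfil3 difference was 0.25 and the Bhlhe40 difference 0.14. Without hAAM replicate 4 the Dbp difference was -2.07.

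Leaving out both nearly identical libraries widened every difference and kept every sign. Because they hold nearly the same values in opposite groups, leaving them out widens most differences by arithmetic alone. Nothing is therefore read from the widening or the kept signs. Dbp then differed by -2.13 (SE 0.46), with 1.29 to 2.69 CPM in the 3 remaining hAAM-treated livers and 5.48 to 11.8 CPM in the 4 remaining vehicle-treated livers. Ciart differed by -1.37 (SE 0.31), Tef by -0.64 (SE 0.23), Bhlhe41 by -0.57 (SE 0.23) and Hlf by -0.37 (SE 0.16), while Nfil3 differed by 0.62 (SE 0.24) and Bhlhe40 by 0.41 (SE 0.28). Dbp, Tef, Ciart and Bhlhe41 no longer overlapped, where 8.24% of 22477 genes did not. For Bhlhe41 the gap was narrow, between 1.74 and 1.76 CPM.

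The core clock genes that act above these regulators differed from control as well. Of 14 core clock genes, 6 rose and 4 fell in vehicle-treated livers (edgeR, adjusted p under 0.05), where 15% of all genes rose and 14.8% fell, and the median over the list was 0.36 on the log2 scale against 0.01 over all genes. Arntl (-1.39, SE 0.24), Npas2 (-2.17, SE 0.49) and Clock (-0.50, SE 0.08), which encode the activators, fell with adjusted p of 0.0019, 0.0065 and 0.0015. Cry1, a repressor gene of the loop, fell by 1.07. Per3 (2.25, SE 0.35), Per1 (1.14, SE 0.17), Per2 (0.80), Cry2 (0.64), Nr1d2 (0.69) and Csnk1e (0.62) rose. Nr1d1, which encodes REV-ERB alpha, a repressor of Nfil3, did not pass (0.95, adjusted p = 0.060). Its level was nonetheless higher in every vehicle-treated liver (21.7 to 30.1 CPM) than in any control (7.63 to 18.2 CPM), where 34.8% of all genes did not overlap. In hAAM-treated livers 4 rose and 1 fell, where 10.7% and 9.96% of all genes did so; Per1 (1.28), Per3 (1.41), Csnk1e (0.57) and Cry2 (0.43) rose and Clock (-0.35) fell. That count of 5 was 2 without control replicate 3 and 3 without control replicate 1, all higher. It was 3 with the replicate block and 2 in a fit of the compared groups alone, again all higher. In those settings the fall of Clock was thus not called. With library size scaling the count was 7, all higher, and without the nearly identical pair it was 3. These lists were drawn up with earlier results of these livers known.

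**Figure D5:**
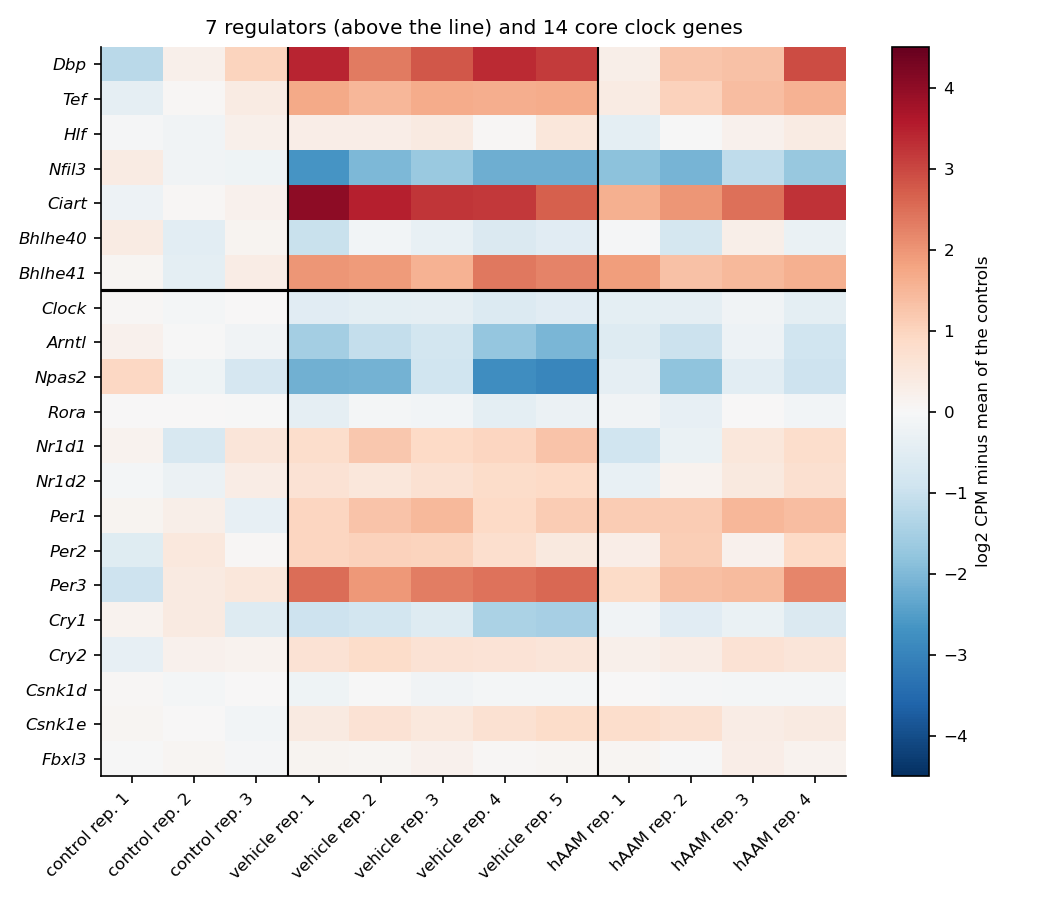
log2 CPM minus the mean of the 3 controls (colour) for the 7 clock output genes, above the line, and 14 core clock genes, below it, in each of 12 livers (columns). Per3 is raised with Dbp, Tef and Ciart, and Arntl and Npas2 are lowered with Nfil3, most of all in vehicle replicates 4 and 5 for Npas2.

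Between the treatments, 6 of the 14 core clock genes had an unadjusted p under 0.05 in edgeR, where 5.02% of all genes did, and 0 passed the adjusted threshold. Arntl (0.74, SE 0.23), Npas2 (1.18, SE 0.46) and Cry1 (0.62, SE 0.22) were the 3 with higher values with hAAMs, and Per3 (-0.83, SE 0.30), Nr1d1 (-0.86, SE 0.32) and Nr1d2 (-0.42, SE 0.19) the 3 with lower values, each with an adjusted p of 0.966. The 12 of 14 core clock genes whose hAAM mean lay between control and vehicle compare with 51.8% of all genes, and without the nearly identical pair 11 of 14 with 49.6%. In DESeq2 without the nearly identical libraries, a setting chosen after the data were seen, Arntl (0.99), Npas2 (1.70) and Per3 (-1.16) passed with adjusted p of 0.029, 0.039 and 0.049. edgeR gave them adjusted p of 0.475 to 0.540 in the same livers.

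Genes known to depend on the PAR bZIP factors were tested next. Of 9 such genes in vehicle-treated livers, Por, the electron donor of microsomal P450 enzymes (0.78, SE 0.21, adjusted p = 0.017), and Abcb1a, a drug efflux pump (1.60, SE 0.13, adjusted p = 2.6e-05), rose, and 0 fell. Over all genes 15% rose and 14.8% fell. Pdxk (-0.26, adjusted p = 0.060) and Alas1, of haem synthesis (0.60, adjusted p = 0.14), did not pass. Nor did the P450 genes Cyp2a5 (-1.64, adjusted p = 0.18), Cyp2a4 (-1.28, adjusted p = 0.22), Cyp7a1 (-1.44, adjusted p = 0.22) and Cyp2b10 (1.05, adjusted p = 0.50), nor Nr1i3, which encodes the receptor CAR (0.51, adjusted p = 0.40). Cyp2a5 and Cyp2a4, close paralogs that may share reads, were nonetheless lower in every vehicle-treated liver than in any control. In DESeq2, with the replicate block, without control replicate 1, without vehicle replicate 3 and without the nearly identical pair, 1 of the 9 genes was called lower, and with the block or without control replicate 1 only 1 was called higher. In hAAM-treated livers 1 of the 9, Abcb1a, passed (1.32, SE 0.13), where 10.7% of all genes rose, and the count was 2 without hAAM replicate 1 and 3, all higher, with library size scaling.

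Other genes with a known daily rhythm in liver gave 3 rises and 1 fall of 9 with vehicle, and 4 rises and 1 fall with hAAMs, where 15% and 10.7% of all genes rose and 14.8% and 9.96% fell. The hAAM count of 5 was 3 without control replicate 3. Wee1, a cell cycle kinase gene driven through E-boxes (1.98, SE 0.22), Usp2, a ubiquitin protease gene (2.01, SE 0.37), and Nampt, of NAD synthesis (0.97, SE 0.18), rose with vehicle. Elovl3, a fatty acid elongase gene, fell by 4.72 (SE 0.55) with vehicle and by 2.64 (SE 0.56) with hAAMs. Its levels were 445, 134 and 186 CPM in control, 9.05, 11.6, 17.8, 3.34 and 6.85 CPM with vehicle, and 68.2, 30.4, 45.1 and 19.5 CPM with hAAMs, so that the 3 groups did not overlap. The values nearest each other between the treatments, 19.5 CPM (hAAM replicate 4) and 17.8 CPM (vehicle replicate 3), were those of the nearly identical libraries. Of all genes, 34.8% did not overlap between vehicle and control, 28.5% between hAAMs and control and 1.4% between the treatments. In edgeR Elovl3 had an unadjusted p of 0.0012 and an adjusted p of 0.966 between the treatments (2.07, SE 0.49). In DESeq2 without the nearly identical pair its adjusted p was 5.6e-05, and in edgeR on the same livers 0.353.

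Relatives of the 7 genes in the C/EBP bZIP and HES/HEY bHLH families were also measured. Of 10, 3 rose with vehicle (Heyl 1.77, Hes1 1.56 and Hey1 1.47) and 4 fell (Hes6 -0.86, Cebpg -0.66, Ddit3 -0.57 and Cebpa -0.47). With hAAMs 2 rose and 3 fell. Over all genes 15% rose and 14.8% fell with vehicle, and 10.7% and 9.96% with hAAMs. Without control replicate 1, and with the replicate block, the vehicle count of 7 was 4 and the hAAM count of 5 was 3, as it was in a fit of the compared groups alone.

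Bhlhe40 and Bhlhe41 are known to respond to hypoxia, and Per1 to glucocorticoids, so lists for both were examined. Of 12 hypoxia-responsive genes, Slc2a1 (1.35, SE 0.19) and Car9 (1.49, SE 0.34) rose with vehicle and 0 fell, and 2 rose and 0 fell with hAAMs, shares near the 15% and 10.7% of all genes that rose. The vehicle count was 4, of which 3 higher, in DESeq2, in a fit of the compared groups alone, without vehicle replicate 3 and without the nearly identical pair. It was 5, all higher, with library size scaling, and 1 when at least 10 counts were asked of every liver, as was the hAAM count. In DESeq2 without the pair the hAAM count was 5, of which 3 higher. Vegfa (-0.48, adjusted p = 0.065) and Pfkfb4 (0.77, adjusted p = 0.068) did not pass. Of 8 glucocorticoid-responsive genes, Fkbp5 alone rose with vehicle (1.87, SE 0.23), a share near that of all genes, while Tsc22d3 (0.57, adjusted p = 0.082), Mt2 (-0.65, adjusted p = 0.13) and Klf9 (0.31, adjusted p = 0.21) did not pass. With hAAMs Fkbp5 (1.38) and Tsc22d3 (0.99) rose and Mt2 (-1.17) fell. The vehicle count was 2 without control replicate 1, without vehicle replicate 5 or with the replicate block, and the hAAM count of 3 was 1 without control replicate 3. Scaled by library size alone, 4 of these genes were called with vehicle, all higher, and 5 with hAAMs, of which 4 higher.

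Across all 12 livers, Per3 was the gene whose log2 CPM most resembled that of Dbp (Pearson r = 0.974) and that of Tef (r = 0.971) among the 11156 genes compared, whose mean log2 CPM was 2 or more. Kctd9 (0.952) and Polm (0.933) followed for Dbp, and Zfp346 (0.970) and Ankrd16 (0.968) for Tef. Hlf was nearest to Pcsk4 (0.927), Nr1d1 (0.898) and Lgals4 (0.891), and Ciart to Dqx1 (0.962), Fkbp5 (0.948) and Nmnat3 (0.945). Nfil3 was nearest to Wapl (0.989), 4732465J04Rik (0.987) and Naa80 (0.985), Bhlhe41 to Get4 (0.979), Slc48a1 (0.976) and Aprt (0.973), and Bhlhe40 to Fam160a1 (0.956), Mrtfb (0.929) and Zfp36l1 (0.908). These correlations are a description over 12 livers that include the difference between control and APAP, and 2 of the livers are the nearly identical pair.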

How the data were processed

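Liver RNA from 12 mice was sequenced in paired-end mode with a directional kit. Per the submitters' processing notes and the study's methods, the authors used FastQC, MultiQC 1.25, cutadapt 4.6 and STAR 2.7.1a on GRCm38, counted reads per Ensembl gene and tested with DESeq2 1.38.3. What the authors deposited are raw counts without any normalization. The strand setting of the counting is not stated, so antisense partners may share reads.

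Groups and replicate numbers came from the sample labels. The 7 genes and all gene lists were chosen with earlier results of these data known. Genes with low counts were removed with filterByExpr by group, counts were scaled with TMM, and 1 quasi-likelihood model was fitted to all 12 livers in edgeR 4.0.16 (R 4.3.3), with two-sided p-values adjusted by Benjamini-Hochberg over all 22581 genes and called at 0.05. DESeq2 1.42.0, other scalings and filters, a replicate block, and leaving out livers were alternatives. The model was tested on simulated data. CPM are counts relative to the TMM-scaled library size; log2 CPM carry a prior count of 2; CPM per kilobase divide by the union exon length of GENCODE. Totals were 47391650 to 74056505 counts per liver, and the precision of the scarce genes Dbp, Ciart and Bhlhe41 in control livers is limited by low counts. The p-values weigh a group difference against the spread between livers, estimated over all 3 groups, and they count the nearly identical libraries as separate mice. Named were the 7 genes, from each pathway list the 4 genes with the smallest p against control with vehicle and list genes compared with them, and the 3 genes most like each of the 7. Other list genes were named after their values were seen, and 1 gene of the core clock list is not reported here.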

Additional observations from a re-analysis of the deposited data

Results flagged for a closer look

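One value stood far from the rest of its group. Tef in vehicle replicate 2 was 6.47 on the log2 CPM scale, below the other 4 vehicle-treated livers, and its gap to the nearest of them took 0.798 of the group's whole range, above Dixon's 95% critical value of 0.71 for 5 samples. By chance about 1 in 20 groups would show such a gap, and 14 groups of 4 or 5 livers were examined.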

How the results depend on the processing

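The sign of each of the 21 member differences (7 genes in 3 comparisons) was kept in all 21 other settings, except for Hlf with hAAMs against control (17 of 21, from -0.08 to 0.34) and Bhlhe40 with hAAMs against control (20 of 21). Scaling by library size alone shifted the median of all genes to 0.36 with vehicle and 0.32 with hAAMs and called 9747 and 7340 genes, of which 88.6% and 89.4% were higher, against 6719 (3380 higher) and 4666 (2418 higher) as reported; Bhlhe41 with vehicle was then 2.45, and Hlf 0.66 with vehicle and 0.34 with hAAMs. With hAAMs against control, a fit of those groups alone called 2729 genes. DESeq2 called 1 gene between the treatments, and without the nearly identical pair 88 (66 higher), with 4 genes of the pathway lists (3 higher); this last setting was chosen after seeing the data. Leaving out 1 liver at a time gave 0 to 1 calls between the treatments (1 without vehicle replicate 3), 4633 to 7197 with vehicle against control, and 2419 (without control replicate 3) to 5456 with hAAMs against control, where it was also 3027 without control replicate 1, 2799 without hAAM replicate 1 and 2942 without hAAM replicate 2. The pathway lists then gave 13 to 21 calls with hAAMs. Replicate numbers recur across groups, but same-numbered livers did not deviate together (10 pairs, r from -0.458 to 0.385, 3 over 0.1); with the replicate block 4253 genes were called with vehicle and 2959 with hAAMs. The causes of these shifts were not tested. Low counts limit control values of Bhlhe41 (20 to 29), Dbp (23 to 108) and Ciart (35 to 52).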
